A study of Mus musculus with 14 samples.

Results

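The genes described here are 10 ion and water transport genes known from the surface epithelium of the colon, namely *Car1*, *Car4*, *Aqp8*, *Aqp4*, *Slc26a3*, *Scnn1b*, *Scnn1g*, *Atp12a*, *Slc9a3* and *Slc9a2*. They were picked by name and by no rule on a measured value, but with earlier results of these data known. A mouse expression array carried 36161 gene names, and all 10 were found there, on 15 probes. Their RNA was measured on 14 one-color arrays of 5 groups. Healthy small intestine (3 arrays) and colon (3 arrays) were whole tissue labelled as C57BL/6J. Macroscopic adenomas (3 arrays) and the tissue next to adenomas (2 arrays) were whole tissue from APCmin/+ mice, which carry a germline truncating mutation of *Apc* in a C57BL/6J background and develop most of their adenomas in the small intestine. CT26 (3 arrays) is a mouse colon carcinoma cell line derived from a BALB/c animal and grown without stroma. The study places all adenoma and adjacent samples under 1 APCmin/+ mouse, so that their spread is that between pieces of tissue of this animal, and the small intestine samples under different animals. It also places 1 of the colon samples under an APCmin/+ mouse, without saying which array that is. Whether the CT26 arrays came from separate cultures is not given in the sources used here.

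The colon recovers salt and water from its content. Sodium enters surface cells through the epithelial sodium channel ENaC and through sodium/proton exchangers, chloride enters in exchange for bicarbonate, carbonic anhydrases supply the proton and the bicarbonate from carbon dioxide, and water follows, in part through aquaporins. Potassium is taken up by a proton/potassium pump of the apical membrane. ENaC and this pump are known targets of aldosterone in the distal colon, whereas the exchangers *Slc9a3* and *Slc9a2* also serve the small intestine, so that the name of the group describes some of the 10 genes better than others.

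Values are given as the scaled log2 signal, which is the log2 of the background-subtracted brightness of a probe less that of the 75th percentile on the same array, so that 0 stands for that percentile and 1 unit is a 2-fold step. Where a gene had a second probe, it was read from the brighter of both. The levels of different genes are not compared, because each probe has a brightness of its own. In whole tissue, fewer cells of a type and less RNA per cell cannot be told apart.

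One array stood apart. Colon replicate 3 correlated with the other colon arrays at 0.9392 and 0.9374 over probes and with the small intestine arrays at 0.96 to 0.9663, while colon replicates 1 and 2 correlated with each other at 0.9786. Of 8 genes listed as markers of the colon region, 3 were well above background on it, and their median signal was -5.76, against 5.53 and 5.30 on the other colon arrays. The 10 genes listed for small intestine enterocytes had a median of 5.78 on it, against -2.71 and -3.24, and the 6 Paneth cell genes 9.08, against -1.19 and 0.21. This array also had the lowest share of probes well above background, 46.9% (the highest was 58.2%). Results that use colon are therefore given with this array and without it. In CT26, 3 or 4 of the 8 epithelial markers were well above background, with medians from -5.73 to -5.14, against 7.22 or more on each tissue array.

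**Figure D1:**
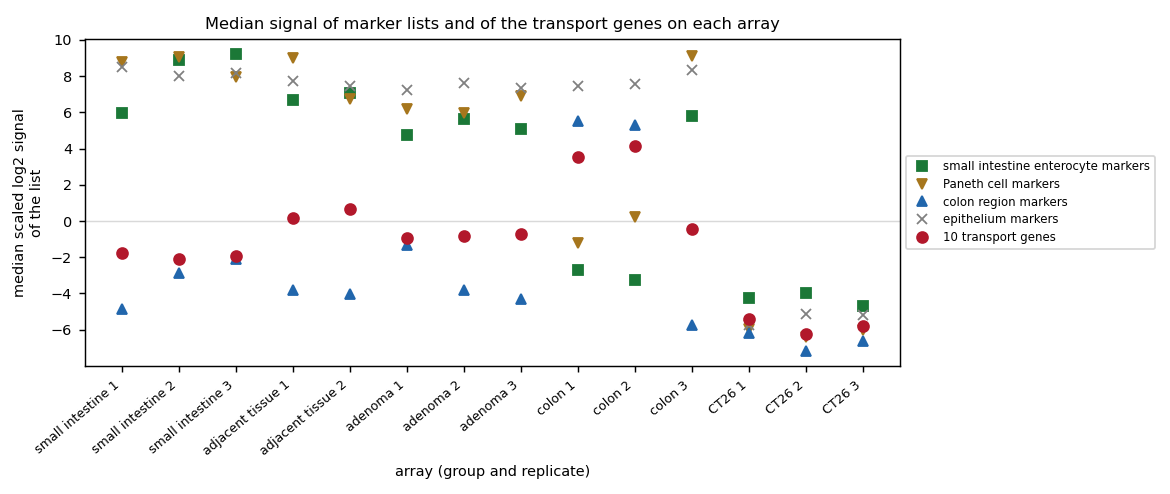
Median scaled log2 signal (vertical axis) of 4 marker lists and of the 10 transport genes on each of the 14 arrays (horizontal axis, group and replicate). On colon replicates 1 and 2 the transport genes (circles, 3.55 and 4.12) and the colon region markers were high and the small intestine markers low. Colon replicate 3 had the opposite order of both marker lists, with the transport genes at -0.45.

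Carbonic anhydrases interconvert carbon dioxide and bicarbonate. *Car1* encodes a cytosolic enzyme and its probe lies on chromosome 3 from 14767486 to 14767545 on the minus strand (NCBI37/mm9, as for the other positions). On colon replicates 1 and 2 its signal was 7.17 and 7.73, and on colon replicate 3 it was -3.10. It was -3.04, -3.13 and -2.49 in small intestine, -2.99 and -3.17 in adjacent tissue, -3.54, -3.46 and -3.37 in adenomas and -2.45, -3.98 and -3.04 in CT26. *Car1* thus had its high signal on 2 of the 14 arrays, and the other 12 lay between -3.98 and -2.45. *Car4* encodes an enzyme anchored to the cell surface (chromosome 11 from 84779487 to 84779546, plus strand). It gave 4.36, 4.30 and 5.09 in small intestine, 4.48 and 3.79 in adjacent tissue, 3.17, 3.35 and 3.30 in adenomas, 5.59, 5.10 and 6.55 in colon and 3.39, 2.51 and 2.81 in CT26. On this brighter probe *Car4* was well above background on each of the 14 arrays, all colon arrays lay above all others, and those of adenomas and CT26 overlapped at the bottom.

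Aquaporins are water channels. *Aqp8* (chromosome 7 from 130611453 to 130611512, plus strand) gave 6.44 and 6.76 on colon replicates 1 and 2, while colon replicate 3, at -4.62, was not well above background. Its signal was -4.09, -2.61 and -1.82 in small intestine, 0.68 and 3.34 in adjacent tissue, 1.48, 1.05 and 0.20 in adenomas and -2.53, 0.05 and -0.39 in CT26. All adenoma and adjacent arrays were above all small intestine arrays, and the 2 adjacent arrays differed from each other more than the 3 adenoma arrays did. *Aqp4*, a basolateral water channel, was well above background on each array. It gave 3.66, 4.34 and 2.20 in colon, -0.31 and -0.32 in adjacent tissue, -0.54, -1.60 and -2.03 in small intestine, -2.18, -2.09 and -1.63 in adenomas and -4.32, -4.57 and -4.53 in CT26. Colon lay above the other groups on all its arrays, replicate 3 included, and CT26 below them, and small intestine and adenomas overlapped.

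*Slc26a3* encodes the chloride/bicarbonate exchanger of the apical membrane, whose loss in people causes congenital chloride diarrhea (chromosome 12 from 32158340 to 32158399, plus strand). Its signal was 3.67, 3.91 and 2.43 in colon, 3.02, 2.61 and 2.57 in small intestine, 2.57 and 2.31 in adjacent tissue and 0.28, 0.46 and 0.51 in adenomas. In CT26 it was -6.89, -7.47 and -7.45, not well above background on any array. The normal tissues overlapped, adenomas formed a tight group beneath them, and CT26 was at the bottom.

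*Scnn1b* and *Scnn1g* encode the beta and gamma subunits of ENaC. *Scnn1b* (chromosome 7 from 129061584 to 129061643, plus strand) gave -0.94 and -1.17 on colon replicates 1 and 2 and -5.91 on colon replicate 3, where it was not well above background. It was above background on all adenoma arrays, at -4.54, -4.72 and -5.05, and on 1 of the 2 adjacent arrays (-5.46 and -4.45, the latter above), but on none of small intestine (-7.27, -6.11 and -6.65) or CT26 (-6.89, -6.67 and -7.44). *Scnn1g* (chromosome 7 from 128911932 to 128911991, plus strand) was not well above background on any of the 14 arrays, its highest value being -4.29 on colon replicate 3, and it did not pass the filter for testing. *Atp12a*, the catalytic subunit of the proton/potassium pump, was read on chromosome 14 from 57005794 to 57006021 on the plus strand. It gave 1.63 and 0.82 on colon replicates 1 and 2, whereas colon replicate 3 (-4.42) and the adjacent (-4.77 and -4.87) and CT26 arrays (-5.24, -5.81 and -5.81) were not well above background. In small intestine 1 of 3 arrays was (-4.85, -4.54 and -4.72, the first of them), and in adenomas 1 of 3 (-5.76, -5.15 and -4.98, the last of them). As for *Car1*, the 2 colon arrays stood apart from the other 12.

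*Slc9a3* and *Slc9a2* encode the apical sodium/proton exchangers NHE3 and NHE2. *Slc9a3* (chromosome 13 from 74306830 to 74306889, plus strand) gave 2.32, 5.83 and 6.31 in small intestine, 3.33 and 4.53 in adjacent tissue, 4.99, 5.23 and 5.24 in adenomas, 3.44, 4.94 and 3.53 in colon and -6.80, -7.18 and -5.82 in CT26, where it was not well above background. Small intestine replicate 1 was the lowest of the tissue arrays, and the enterocyte markers were also lower on it, with a median of 5.97 against 8.86 and 9.20. Their part in this value was not tested. *Slc9a2* (chromosome 1 from 40825584 to 40825643, plus strand) gave 2.89, 2.99 and 3.53 in small intestine, 2.68, 2.85 and 2.72 in colon, 1.28 and 1.66 in adjacent tissue, 0.64, 0.97 and 0.51 in adenomas and -5.56, -7.23 and -6.42 in CT26, not well above background there. On this scale it was the 1 gene of the 10 whose 5 groups followed each other without overlap, from small intestine down through colon, adjacent tissue and adenomas to CT26. Small intestine and colon nearly met (2.89 and 2.85). In the authors' normalized values they overlapped, at 12.26 to 12.72 and 12.11 to 12.49.

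**Figure D2:**
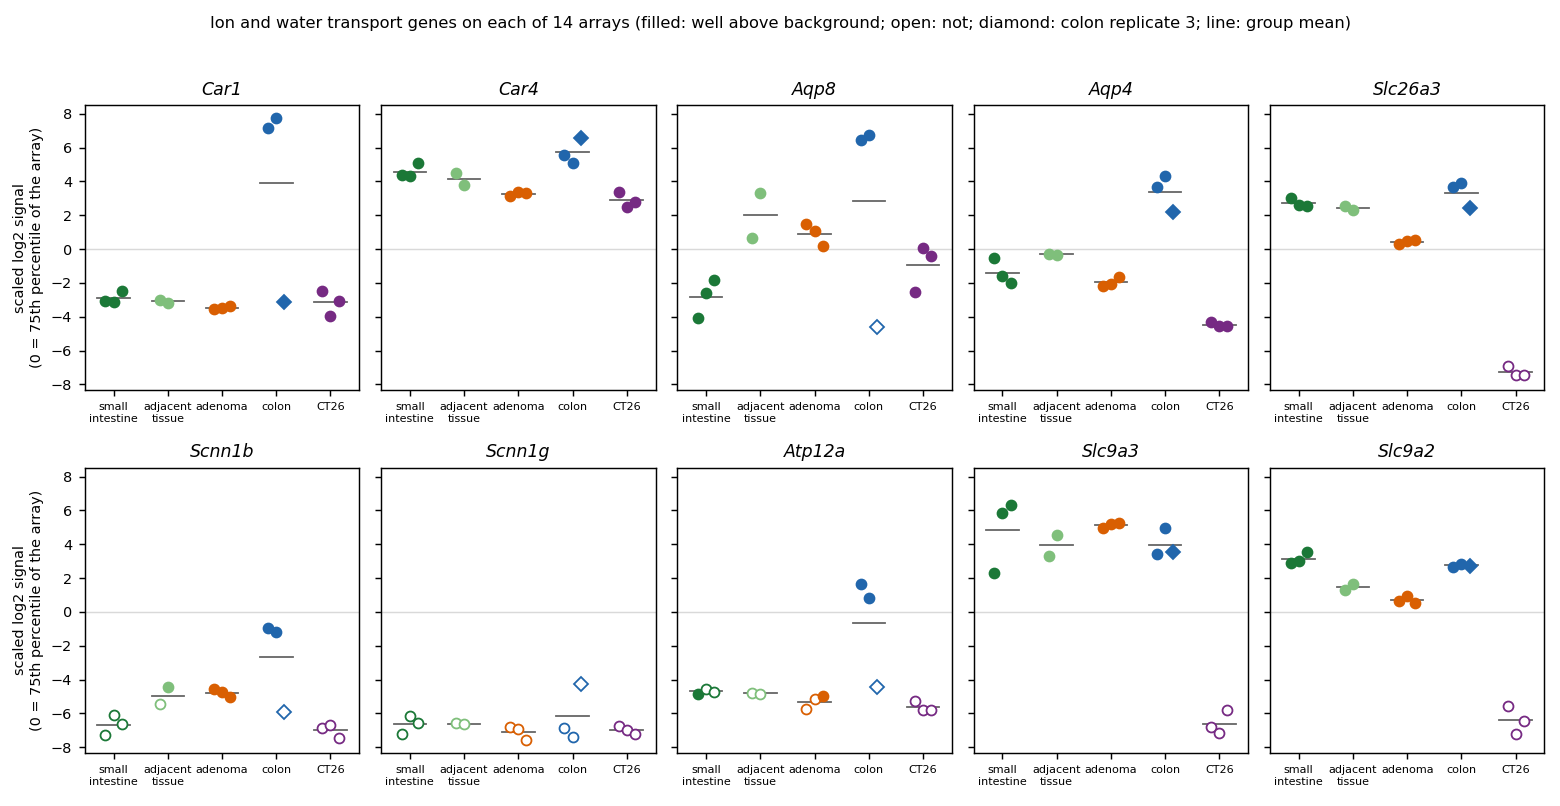
Scaled log2 signal (vertical axis, 0 being the 75th percentile of the array) of each of the 10 genes in the 5 groups, with 1 symbol per array and a line at the group mean. Open symbols were not well above background and the diamond is colon replicate 3, which lay far below colon replicates 1 and 2 for *Car1*, *Aqp8*, *Scnn1b* and *Atp12a*.

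Over the 14 arrays, *Car1* and *Atp12a* followed each other with a Pearson correlation of 0.981, *Slc26a3* and *Slc9a2* with 0.985, and *Slc9a3* and *Slc9a2* with 0.937, while *Car1* correlated with *Slc9a3* at 0.184. These are descriptions over arrays that share groups and scaling, the first resting on 2 colon arrays far from the rest and the others on 3 CT26 arrays. The promoter stretches of 4 genes are shown for both patterns, *Aqp8* and *Scnn1b* for genes whose signal was high on colon replicates 1 and 2, and *Slc26a3* and *Slc9a3* for genes that small intestine and colon shared. They hold the 250 bases before the annotated start in the RefSeq promoter table (GRCm38.p6, another build than that of the probes), 5′ to 3′ on the plus strand, which had an entry for 6 of the 10 genes. Capitals mark the GC box GGGCGG on either strand, bound by Sp and Klf factors, which 32.7% of the 32851 promoter entries held in the same stretch. The stretches lie on chromosome 7 (123462044 to 123462293 for *Aqp8* and 121864788 to 121865037 for *Scnn1b*), chromosome 12 (31437969 to 31438218) and chromosome 13 (74121163 to 74121412).
Aqp8: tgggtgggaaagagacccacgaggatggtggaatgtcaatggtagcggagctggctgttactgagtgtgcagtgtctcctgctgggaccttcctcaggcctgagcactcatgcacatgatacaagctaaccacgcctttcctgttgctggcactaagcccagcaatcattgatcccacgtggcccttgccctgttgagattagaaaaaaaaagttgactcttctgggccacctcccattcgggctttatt
Scnn1b: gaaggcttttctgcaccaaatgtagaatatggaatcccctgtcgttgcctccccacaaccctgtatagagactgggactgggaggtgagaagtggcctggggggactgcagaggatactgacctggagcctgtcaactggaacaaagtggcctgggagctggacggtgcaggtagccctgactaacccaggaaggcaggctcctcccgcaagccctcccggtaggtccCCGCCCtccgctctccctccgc
Slc26a3: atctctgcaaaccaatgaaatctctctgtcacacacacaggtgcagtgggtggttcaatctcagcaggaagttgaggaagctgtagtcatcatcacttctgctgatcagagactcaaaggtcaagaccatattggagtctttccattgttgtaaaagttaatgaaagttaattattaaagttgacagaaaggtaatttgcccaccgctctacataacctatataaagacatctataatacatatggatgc
Slc9a3: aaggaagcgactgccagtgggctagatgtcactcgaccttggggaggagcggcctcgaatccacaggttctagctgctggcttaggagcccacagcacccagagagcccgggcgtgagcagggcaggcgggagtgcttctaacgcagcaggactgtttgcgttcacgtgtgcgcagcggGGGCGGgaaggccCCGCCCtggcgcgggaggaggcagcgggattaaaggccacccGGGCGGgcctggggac
The GC box was found once in *Scnn1b*, 3 times in *Slc9a3* and 2 times in *Scnn1g*, and not in *Aqp8*, *Slc26a3* or *Car4*. The G and C content was 67.6% in *Slc9a3* and 38.8% in *Slc26a3*, with a median of 52.4% over all entries, so that 2 genes of the same pattern had unlike stretches. The motifs CAAAGNCCA (HNF4), TTTATNG (Cdx) and TGTTCT (the half-site of steroid receptors), searched on both strands, were in none of the 6 stretches, against 1.7%, 9.81% and 16.1% of all entries.

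Colon and small intestine were compared first, to see which of these genes belong to the large intestine. With the 3 colon arrays no member was called, out of 7 tested by limma on the arrays of both groups. Tested means well above background on each array of at least 1 of the 2 groups, and called means that the log2 fold change reached 1.2 in either direction and that p, adjusted over all probes tested (Benjamini-Hochberg), did not exceed 0.01. Of 20646 genes, 0.00484% were called in each direction, so that a count of 0 is near the background, and 3 members were higher in colon at an unadjusted p under 0.05. *Aqp4* came nearest, higher in colon by 4.79 ± 0.63 on the log2 scale (standard error, adjusted p = 0.0439). *Car1* and *Aqp8* had fold changes of 6.82 and 5.70 with standard errors of 2.74 and 2.95 (adjusted p = 0.201 and 0.288). *Car4* differed by 1.16 (adjusted p = 0.179), *Slc26a3* by 0.61 (0.417), *Slc9a2* by -0.39 (0.392) and *Slc9a3* by -0.85 (0.653), and the median was 1.16 over the 7 members and -0.08 over all genes. *Scnn1b* and *Atp12a*, at least 3.65-fold and 14.1-fold higher, were not tested with this array.

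Without colon replicate 3, 5 of 9 members tested were higher in colon and none lower, where 3.33% and 3.88% of 22602 genes were called higher and lower (0 members were lower at an unadjusted p under 0.05). *Car1* was 1294-fold higher (10.34 on the log2 scale, with a standard error of 0.312 and a limma adjusted p = 9.97e-05). *Aqp8* was 694-fold higher (9.44, standard error 0.641, adjusted p = 0.000743), *Aqp4* 42-fold (5.39, adjusted p = 0.00178), *Atp12a* at least 52-fold (adjusted p = 0.000327) and *Scnn1b* at least 11.2-fold (adjusted p = 0.000688). *Scnn1b* and *Atp12a* passed the filter through the 2 colon arrays alone and could only come out higher there, so that their calls say nothing of the direction of the group. Their values are bounds, because small intestine was above background on 1 of 3 arrays for *Atp12a* and on none for *Scnn1b*, and the mean of colon was then set against the lowest measurable level of each array. The genes that were not called kept small differences, with 0.76 for *Car4* (adjusted p = 0.144), 1.06 for *Slc26a3* (0.0324), -0.37 for *Slc9a2* (0.348) and -0.63 for *Slc9a3* (0.721). With both at their bounds, the median over the 9 members was 3.49, which is the bound of *Scnn1b* itself. Because *Scnn1b* and *Atp12a* could only be higher, it cannot be read against the median over all genes tested, -0.06. A colon of 2 arrays measures the spread between these arrays alone.

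**Figure D3:**
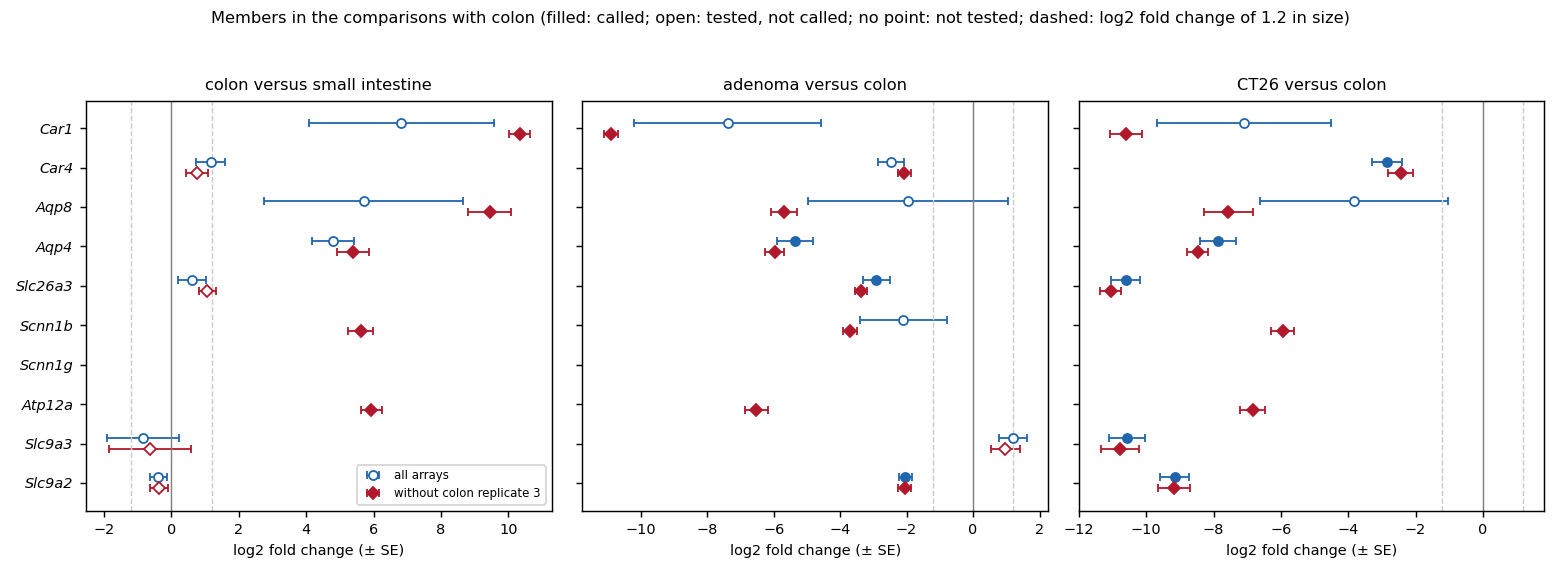
Log2 fold change with its standard error (horizontal axis) of each gene in the 3 comparisons with colon, on all arrays (circles) and without colon replicate 3 (diamonds). Filled symbols were called, open ones were tested and not called, and a gene without a symbol was not tested. For genes not well above background in 1 of the groups the symbol is the fitted difference and not a fold. The standard errors of *Car1* and *Aqp8* were 2.59 to 3.01 with all arrays and 0.214 to 0.724 without that array.

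Between adenomas and small intestine, 2 of 8 members tested were higher and 3 lower in adenomas, where 11.3% and 11.1% of 22095 genes were called. The apical exchangers *Slc26a3* (4.97-fold lower, log2 fold change -2.31, standard error 0.187, limma adjusted p = 0.000199) and *Slc9a2* (5.39-fold lower, -2.43, standard error 0.23, adjusted p = 0.000339) were underexpressed in adenomas, and both stayed called under every alternative of values, filter, fit or left-out array that was run. *Car4* was 2.48-fold lower (-1.31, adjusted p = 0.00448). *Aqp8* was 13.5-fold higher (3.75, standard error 0.594, adjusted p = 0.00249). *Scnn1b* was the other gene called higher (adjusted p = 0.00281), but small intestine was above background on none of 3 arrays, it passed the filter through adenomas alone, and no fold is given for it. *Slc9a3*, with a difference of 0.33 (adjusted p = 0.786, 95% interval from -1.94 to 2.61), *Aqp4* (-0.58, adjusted p = 0.239) and *Car1* (-0.57, adjusted p = 0.0555) were not called. The median over the 8 members was -0.57, and that over all genes was -0.15. The adenoma samples are placed under the same APCmin/+ mouse and the small intestine samples under different animals. The standard errors therefore hold no spread between adenoma-bearing mice, and adenoma, animal and genotype cannot be told apart here.

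The weaker of these calls depended on the processing. *Car4* missed a threshold without small intestine replicate 3 (log2 fold change -1.06) and without any one of the adenoma arrays (adjusted p = 0.0189 to 0.0211), and *Aqp8* and *Scnn1b* missed it without adenoma replicate 1 (adjusted p = 0.0122 and 0.0143) or 2 (0.014 and 0.0152). With all 5 groups in 1 fit the adjusted p was 0.214 for *Aqp8* and 0.149 for *Scnn1b*. The fitted *Scnn1b* difference of 1.90 shrank to 0.44 in the authors' table and to 0.12 after normexp background correction. For *Slc9a3*, leaving out small intestine replicate 1 turned the difference to -0.92 (adjusted p = 0.0113).

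Adenomas were compared next with the tissue beside them, the comparison within 1 animal. Of 8 members tested, 2 were lower in adenomas and none higher, where 1.81% and 2.4% of 22200 genes were called lower and higher (1 member was higher at an unadjusted p under 0.05). *Slc26a3* was 4.07-fold lower (log2 fold change -2.03, standard error 0.169, limma adjusted p = 0.00375) and *Aqp4* 3.15-fold lower (-1.65, standard error 0.209, adjusted p = 0.00829), with no overlap of the arrays. *Car4* (-0.86, adjusted p = 0.0547) and *Slc9a2* (-0.77, adjusted p = 0.0574) lay lower in adenomas on all arrays without being called, and *Slc9a3* (1.22, adjusted p = 0.0637) higher. *Aqp8* differed by -1.10 (adjusted p = 0.36) and *Scnn1b* by 0.18 (adjusted p = 0.711), and both overlapped between the groups. The median was -0.81 over the 8 members and -0.04 over all genes. The *Aqp4* call was lost without each of the 5 arrays in turn (adjusted p = 0.0179 to 0.0503), and that of *Slc26a3* without adjacent replicate 1 or any adenoma array (0.0111 to 0.0345), at log2 fold changes of -1.90 or larger in size.

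Adjacent tissue and small intestine differed in no member past the thresholds, out of 7 tested by limma, where 0.00924% of 21642 genes were higher and 0% lower in adjacent tissue. At an unadjusted p under 0.05 there was 1 member in each direction. *Aqp8* had the largest difference among them, 28.8-fold (log2 fold change 4.85, standard error 0.954, adjusted p = 0.0594), with both adjacent arrays above the 3 small intestine arrays, and *Slc9a2* was 3.17-fold lower (-1.67, standard error 0.282, adjusted p = 0.0526), again without overlap. With 2 adjacent arrays, these adjusted p values do not show that the tissues were alike. For *Slc26a3* the difference was -0.29 (adjusted p = 0.443), and the median was -0.29 over the 7 members and -0.09 over all genes.

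**Figure D4:**
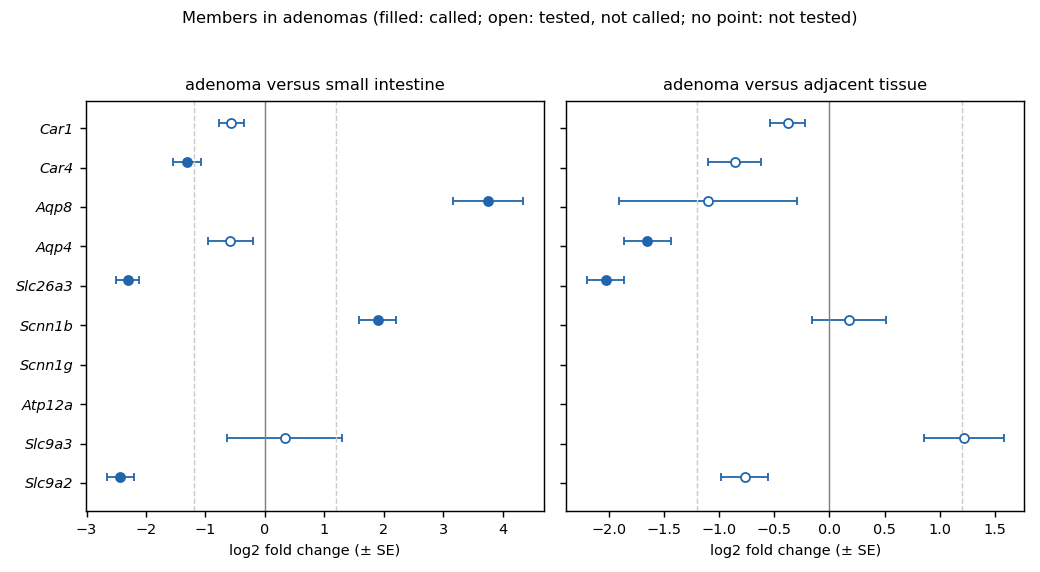
Log2 fold change with its standard error (horizontal axis) of each gene between adenomas and small intestine and between adenomas and adjacent tissue, with filled symbols for called genes. That of *Scnn1b* against small intestine is a fitted difference from a level not above background. *Slc26a3* was called lower in both panels, at -2.31 and -2.03, and *Aqp8* lay at 3.75 in the first and at -1.10 in the second.

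Against colon, 3 of 8 members tested were lower in adenomas and none higher, where 1.61% and 2.05% of 21862 genes were called (1 member was higher at an unadjusted p under 0.05). They were *Aqp4* (41.3-fold, log2 fold change -5.37, limma adjusted p = 0.00417), *Slc26a3* (7.57-fold, -2.92, adjusted p = 0.00934) and *Slc9a2* (4.12-fold, -2.04, adjusted p = 0.00371). *Car4* (-2.47, adjusted p = 0.0125), *Car1* (-7.39, 0.15), *Scnn1b* (-2.10, 0.354) and *Aqp8* (-1.95, 0.724) lay lower in adenomas on average and were not called. Without colon replicate 3 the count was 8 of 9, with 6.69% and 5.04% of 23065 genes lower and higher. *Car1* was then 1923-fold lower (adjusted p = 5.2e-05), *Aqp4* 62.5-fold (0.000265), *Aqp8* 51.6-fold (0.00071), *Scnn1b* 13.1-fold (0.000419), *Slc26a3* 10.4-fold (0.000314), *Car4* 4.2-fold (0.00174) and *Slc9a2* 4.16-fold (0.00172). *Atp12a* was at least 72-fold lower (0.000358), having passed the filter through the 2 colon arrays alone, and at least 19.5-fold with all arrays, where it was not tested. *Slc9a3* was not called, at 1.19 with all arrays (adjusted p = 0.13) and at 0.97 without colon replicate 3 (0.155). The median over members was -2.28 with all arrays and -3.71 without colon replicate 3, against -0.06 and -0.01 over all genes. That without colon replicate 3 includes *Atp12a*, which could only be lower. The gut site of these adenomas is not given in the sources used here, and the colon region markers had medians from -4.31 to -1.32 in them, so that region and tumor cannot be told apart. Leaving out colon replicate 1, colon replicate 2 or an adenoma array left 0 or 1 members called. Few of all genes were called in these settings. Without colon replicate 1, 114 of 21975 genes were higher and 18 lower, and without colon replicate 2, 275 and 82 of 21932. Without adenoma replicate 1, 2 or 3 these were 15 and 1 of 22445, 4 and 0 of 22213, and 35 and 5 of 21912.

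CT26 was compared with colon last. Of 7 members tested, 5 were lower in CT26, where 16.2% and 21.1% of 21696 genes were called lower and higher, and without colon replicate 3 this held for all 9 tested, with 19.4% and 20.2% of 23186 genes. None was called higher or was so at an unadjusted p under 0.05. The 3 exchangers, and *Scnn1b* and *Atp12a* without that array, were above background on no CT26 array and passed the filter through colon alone, so that they could only be lower and the counts cannot be read against these shares. Of the 3 members well above background on each array of both groups, 2 were called lower, beside 1372 lower and 3787 higher of 16491 genes under that filter. The exchangers were below the measurable level in CT26, *Slc9a3* at least 575-fold lower (limma adjusted p = 4.43e-06), *Slc26a3* at least 394-fold (adjusted p = 2.02e-06) and *Slc9a2* at least 262-fold (adjusted p = 3.63e-06), all with the 3 colon arrays. Without colon replicate 3 these bounds were 669-fold, 538-fold and 264-fold. *Aqp4* was 234-fold lower (-7.87, adjusted p = 1.96e-05), or 355-fold without that array (1.94e-06), and stayed well above background in CT26. *Car4* was 7.14-fold lower (-2.84, adjusted p = 0.00134), or 5.41-fold (0.00117). Without colon replicate 3, *Car1* was 1562-fold lower (adjusted p = 3.69e-06), *Aqp8* 188-fold (0.000138), *Atp12a* at least 85.5-fold (7.76e-06) and *Scnn1b* at least 18.7-fold (9.45e-06), whereas with it *Car1* and *Aqp8* were not called (0.0512 and 0.289), and the last 2, at least 23.2-fold and 6.09-fold lower, were not tested. With bounds in place of fitted values, the median over members was -7.87, or -8.04 without that array, and 0.32 over all genes either way. Of the member values, 3 of 7, or 5 of 9 without that array, were bounds of genes that could only be lower. The medians over members therefore cannot be read against that over all genes. Beside the member values stand those of the 8 epithelial markers, whose medians on the CT26 arrays were -5.73 to -5.14, with 3 or 4 of them well above background. Those of smooth muscle had medians from -4.96 to -4.60 against 6.61 to 7.04 in colon. Their part in the differences was not tested.

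Of the 5 genes with 2 probes, both probes followed each other over the 14 arrays, with correlations of 0.996 for *Aqp4*, 0.994 for *Car1*, 0.975 for *Aqp8*, 0.969 for *Slc9a3* and 0.892 for *Car4*. The probes of *Car4* differed most in what they gave. In adenomas its second probe (chromosome 11 from 84777667 to 84777726) lay at -2.33, -1.53 and -0.35, against 3.18, 2.21 and 3.25 in small intestine, which is a difference of -4.28 (log2, standard error 0.524, limma adjusted p = 0.000888) where the brighter probe gave -1.31. In CT26 it was not well above background, at -5.21, -6.91 and -5.77, and at least 1092-fold lower than in colon (960-fold without colon replicate 3), where the brighter probe gave 7.14-fold. It was also called lower in adenomas than in colon with all arrays (79.7-fold, adjusted p = 0.00248, and 70.1-fold without colon replicate 3), a comparison in which the brighter probe was not called (5.55-fold, adjusted p = 0.0125). Between adenomas and adjacent tissue the second *Car4* probe differed by -3.67 (limma adjusted p = 0.0188) and the brighter by -0.86, neither of them called. Both probes gave the same direction in each comparison in which both were tested. For *Car1*, the second probe was well above background on colon replicates 1 and 2 alone (6.18 and 6.92), which without colon replicate 3 was at least 2187-fold over small intestine, and with it at least 123-fold. The second probe of *Slc9a3* was dimmer, and its decrease in CT26 was at least 4.76-fold (5.38-fold without colon replicate 3) where the brighter probe gave at least 575-fold.

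**Figure D5:**
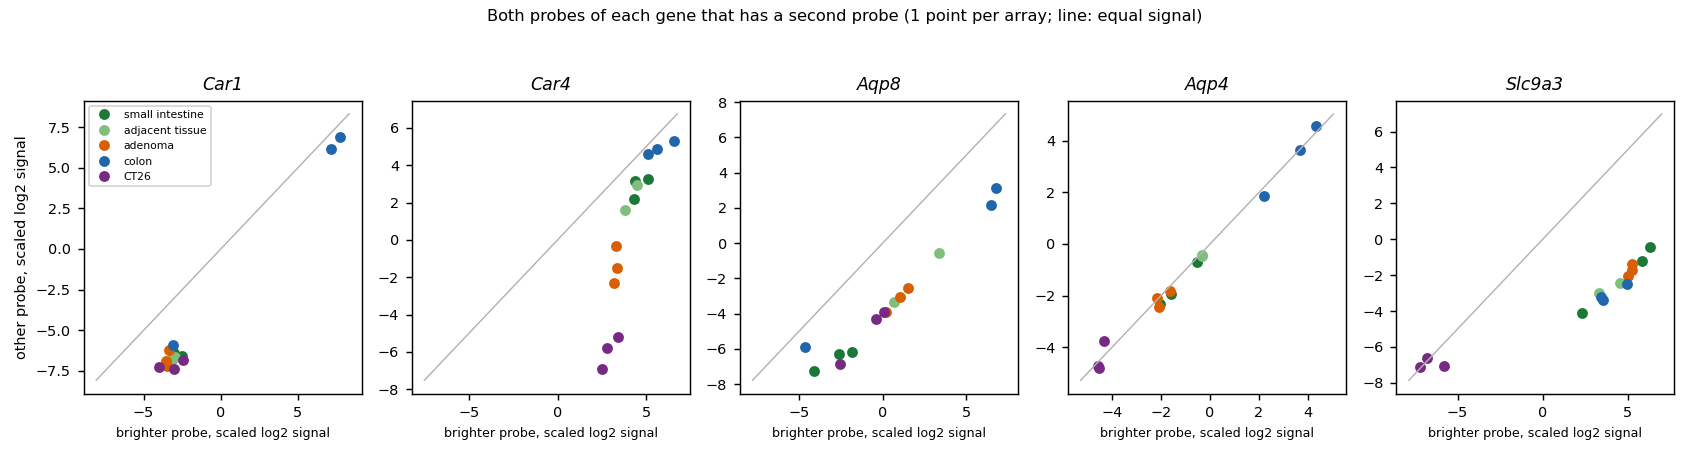
Scaled log2 signal of the brighter probe (horizontal axis) and of the other probe (vertical axis) on each of the 14 arrays, for the 5 genes with 2 probes, with the line of equal signal. The probes of *Aqp4* fell close to the line, and those of *Car4* spread over about 4 units on the brighter probe and over 12 units on the other.

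A further 49 genes of ion and water transport were listed by function, and all were on the array. With all arrays, 0 of 44 tested by limma were called between colon and small intestine (6 higher and 10 lower at an unadjusted p under 0.05), and without colon replicate 3, 3 of 46 were higher and 7 lower, beside 3.33% and 3.88% of all genes. Among the lower, *Pdzk1* and *Aqp3* were not well above background on each colon array and passed the filter through small intestine alone. They could only be lower, so that the count of lower genes cannot be read against its share. Higher in colon were *Best2*, a bicarbonate channel of colonic goblet cells (352-fold, limma adjusted p = 0.00087), and *Ano1*, a calcium-gated chloride channel (10.9-fold, 0.00144). *Scnn1a*, the alpha subunit of ENaC, was also higher (5.06-fold, 0.00322). With all arrays the 3 genes were 58-fold, 5.23-fold and 2.37-fold higher and not called (adjusted p = 0.166, 0.17 and 0.424). Lower were *Pdzk1*, a scaffold protein of apical transporters (at least 3371-fold, 0.000197), the anion exchanger *Slc26a6* (296-fold, 0.000111) and the glycerol and water channel *Aqp3* (at least 224-fold, 0.000257), which with all arrays were at least 321-fold (0.143), 42.5-fold (0.203) and at least 70.7-fold (0.0839) lower and not called.

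In adenomas against small intestine, 9 of 46 listed genes were higher and 19 lower, beside 11.3% and 11.1% of all genes, with a median log2 fold change of -0.50, and -0.15 over all genes. *Aqp5* and *Slc9a4* passed the filter through adenomas alone and could only be higher, and *Slc5a8* through small intestine alone and could only be lower. For genes well above background on each array of both groups, 7 of 42 listed genes were higher and 18 lower. Beside them stood 1752 and 2209 of 19324 genes. Of the 5 aquaporins tested among the 46 listed genes, 4 were lower and 1 higher. The 1 was *Aqp5*, a water channel known from salivary and gastric glands, which was at least 381-fold higher (limma adjusted p = 0.0018), and *Aqp3* was 35-fold lower (9.41e-05). *Slc5a8*, a sodium-coupled transporter of short-chain fatty acids, was at least 73.6-fold lower (0.00071) and *Pdzk1* 42-fold lower (0.000119), while *Fxyd3*, a regulator of the sodium pump, rose 17.7-fold (0.000102) and *Kcne3*, a potassium channel subunit of the basolateral membrane, 5.94-fold (0.000869). Of the mineralocorticoid pathway, 2 of 5 genes tested were lower and none higher, *Nr3c2*, the receptor of aldosterone (2.81-fold, 0.00182), and the kinase *Sgk1* (16.2-fold, 0.000141). The log2 fold changes of the others were -1.12 for *Nedd4l* (0.00197), 0.59 for *Prss8* (0.0706) and 1.15 for *Hsd11b2* (0.274), and that of *Scnn1a* was -1.08 (0.00318), none of them called. Against adjacent tissue, 5 of 46 were higher and 3 lower, beside 2.4% and 1.81% of all genes. The first were *Aqp5* (170-fold, 0.000855), *Ano1* (4.94-fold, 0.00553), *Kcne3* (3.16-fold, 0.00916), *Car12* (2.92-fold, 0.00966) and *Slc9a4*, which was not above background in adjacent tissue (at least 1.37-fold, 0.00773), and *Pdzk1* (12-fold, 0.00745), *Aqp3* (6.87-fold, 0.00263) and *Kcnk5* (3.51-fold, 0.00586) were the others. *Slc9a4* passed the filter through adenomas alone and could only be higher. With each array of adenomas and adjacent tissue well above background, 5 of 43 listed genes were higher and 4 lower, beside 441 and 422 of 20405 genes. The 3 gastric genes *Atp4a*, *Atp4b* and *Gif* had a median of -3.22 to -2.32 in adenomas, against -6.17 to -3.95 in small intestine and adjacent tissue. Their part in the *Aqp5* values was not tested.

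Between adjacent tissue and small intestine, 0 of 45 listed genes were called by limma, beside 0.00924% and 0% of all genes (5 higher and 15 lower at an unadjusted p under 0.05). Against colon, 1 of 47 listed genes was higher in adenomas and 4 lower, beside 2.05% and 1.61% of all genes, and without colon replicate 3, 7 of 48 and 12, beside 5.04% and 6.69%. With all arrays, 40 listed genes were well above background on each array of both groups. Of them, 0 were higher and 3 lower, beside 237 and 318 of 18675 genes. *Aqp5* passed the filter through adenomas alone and could only be higher, and *Slc5a8* through colon alone and could only be lower. The counts of 47 and 48 genes, with and without colon replicate 3, therefore cannot be read against the shares. *Aqp5* was at least 910-fold higher (limma adjusted p = 6.3e-05), *Slc5a8* at least 153-fold lower (0.00395), *Slc26a2* 7.9-fold lower (0.00145) and *Nr3c2* 5.87-fold lower (0.00662). Without that array these were at least 1254-fold, at least 129-fold, 7.54-fold and 5.77-fold, all called. *Fxyd4*, a pump regulator of aldosterone-sensitive epithelia (at least 185-fold, 0.00921), and *Best2* (534-fold, 0.000678) joined the lower genes without that array, and *Pdzk1* (at least 80.3-fold, 0.00176) and *Slc26a6* (64.6-fold, 0.000208) the higher ones. With it, *Best2* was 88-fold lower (0.109), *Pdzk1* at least 7.66-fold higher (0.539) and *Slc26a6* 9.28-fold higher (0.409), and *Fxyd4* was not tested. In CT26, 25 of 44 were lower than in colon and 2 higher, beside 16.2% and 21.1% of all genes, or 28 and 3 of 46 without colon replicate 3, beside 19.4% and 20.2%. With all arrays, 14 of the 44 had a bound only. Listed genes above background on no CT26 array passed the filter through colon alone and could only be lower. *Aqp5*, above background on no colon array, could only be higher, so that these counts cannot be read against the shares. Among genes well above background on each array of both groups, 12 of 29 listed genes were lower and 1 higher, beside 1372 and 3787 of 16491 genes. The sodium pump subunit *Atp1b1* (at least 4209-fold, 7.51e-06), *Kcne3* (at least 754-fold, 4.72e-06) and *Ano1* (at least 688-fold, 5.02e-05) were among the lower genes with all arrays, with bounds of 3582-fold, 1218-fold and 1432-fold without colon replicate 3, and the cytosolic carbonic anhydrase *Car2* was among them with all arrays (at least 615-fold, 0.00208) and without colon replicate 3 (at least 2950-fold, 1.12e-06). The 2 higher genes were *Aqp5* (at least 7.01-fold, 5.4e-05) and the pump subunit *Atp1b3* (3.31-fold, 0.00171), which without that array were at least 9.66-fold and 3.04-fold higher. *Slc26a6* joined them without that array (3.46-fold higher, limma adjusted p = 0.00155), while with all arrays it was 2.01-fold lower and not called (0.71). The median over the listed genes, bounds included, was -2.58, and that over the members was -7.87. Both sets hold genes that could only be lower, so that these medians are not compared. Both were chosen for their known role in epithelia.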

How the data were processed

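Total RNA was labelled with Cy3 and hybridised to 14 Agilent mouse arrays on 2 slides, read with Feature Extraction 10.7.3.1. The deposited scanner files hold the intensity of 62976 spots, background-subtracted by the authors' scanner software. A deposited table of normalized log2 values, whose normalization is not given in the sources used here, served as an alternative. Its 28 flag and detection columns, and its fold changes and p-values, which hold the authors' own comparisons, were not used.

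Control spots and outlier spots were left out, spots of a probe were averaged (55681 probes), and the log2 intensity was scaled to the 75th percentile of each array. Between 46.9% and 58.2% of probes were well above background. The number of arrays limits the precision. Each pair of groups was fitted with limma 3.58.1 in R 4.3.3 (lmFit, eBayes) on its own arrays, with Benjamini-Hochberg adjustment over all probes tested, and the fit was tested on simulated data. For genes with several probes, the brightest on average over the arrays was used. Probes not well above background on a group's arrays gave a bound, against the lowest signal well above background on each array. All 10 genes were named, with the 3 largest called changes of the related genes in each comparison and direction, the other related genes named (the mineralocorticoid genes and *Scnn1a* in adenomas against small intestine, *Kcne3* and *Car12* against adjacent tissue, *Car2* with all arrays) having been chosen after their values were seen. The genes and lists were chosen with earlier results of these data known. Alternatives were the authors' table, normexp (offset 50), quantile normalization, 2 other filters, all 5 groups in 1 fit, replicate number or slide as a block, an adjusted p of 0.05, and leaving out each array. Probe positions are those of the files (NCBI37/mm9).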

Additional observations from a re-analysis of the deposited data

How the results depend on the processing

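No difference of a called gene changed sign under the alternatives. Of 621 values of single genes under another setting, 533 kept their side of the thresholds, 64 lost the call, 16 gained it and 8 moved. The count of members called between adenomas and small intestine, 5, was 3 in the authors' table, 2 with all 5 groups in 1 fit and 2 to 5 without 1 array. Of all 22095 genes, 2025 were higher and 1558 lower in the authors' table, and 2114 and 1754 with all 5 groups. Between adenomas and adjacent tissue, 2 became 1 after quantile normalization, 0 with every probe tested, with all 5 groups in 1 fit or with the slide as a block, and 0 to 2 without 1 array. Few genes of any kind were called in several of these settings. With every probe tested, 54 of 36161 genes were higher and 1 lower. Of 22200 genes, 160 and 36 were called with all 5 groups, and 129 and 33 with the slide as a block. Without adenoma replicate 1 or 2, 0 of 22658 and 0 of 22479 genes were called. A member count of 0 there is near the background. Between adenomas and colon, 3 became 1 with every probe tested, 0 with the slide as a block and 0 to 8 without 1 array. All genes called there were 182 higher and 59 lower of 36161 with every probe tested, and 73 and 11 of 21862 with the slide as a block. Between CT26 and colon, 5 became 2 when both groups had to be well above background (1372 lower and 3787 higher of 16491 genes), and 5 to 9 without 1 array. Between colon and small intestine, 0 became 1 with all 5 groups or at an adjusted p of 0.05, and 0 to 5 without 1 array. Of 20646 genes, 281 were higher and 512 lower with all 5 groups, and 45 and 64 at an adjusted p of 0.05. Adjacent tissue and small intestine gave 0 throughout. Counts of related genes without 1 array ran from 0 to 10 for colon and small intestine, 0 to 10 (0 without adenoma replicate 1 or 2) for adenomas and adjacent tissue and 1 to 19 for adenomas and colon. The cause was not tested.

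No source says that the replicate number pairs the samples, and same-numbered arrays deviated from their group means with correlations from -0.223 to 0.302. As a replicate block it left 3 members called between adenomas and small intestine, 0 between adenomas and adjacent tissue and 0 between adenomas and colon. In the same order, that block called 2225 genes higher and 2204 lower of 22095, 81 and 15 of 22200, and 41 and 8 of 21862. The titles number the adjacent arrays 2 and 3 instead of 1 and 2. By title number, a pairing tried after seeing the data, the correlations were -0.004 and -0.11 between adenomas and adjacent tissue and -0.089 and 0.249 between adjacent tissue and small intestine, and the replicate block left 0 members called in both. It also left 0 of 22200 and 0 of 21642 genes called. On each slide taken alone, the called differences kept their sign, 5 of 5 between adenomas and small intestine, 2 of 2 against adjacent tissue, 3 of 3 against colon and 5 of 5 for CT26.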

Other observations

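Of 14267 genes searched, those whose signal followed each transport gene most closely over the 14 arrays are given as a description. *Cyp2d34* (Pearson correlation 0.981) and *Hoxa11as* (0.978) were nearest to *Car1*, and the same genes to *Atp12a* (0.976 and 0.974). *Sdr42e1* and *Lrig3* (both 0.997) were nearest to *Slc26a3*, *Plekhh1* (0.996) and *Crym* (0.994) to *Slc9a2*, and *Homer2* (0.987) and *Gstk1* (0.986) to *Slc9a3*. *Abo* (0.98) and *Tspan33* (0.978) were nearest to *Scnn1b*, *Carns1* (0.967) and *Fam155a* (0.965) to *Aqp4*, *Ppard* (0.963) and *Cpb2* (0.944) to *Car4*, and *Gstm2* (0.92) and *Lrrc8e* (0.911) to *Aqp8*. *Scnn1g*, nowhere above background, was nearest to *Epas1* (0.932) and *Ksr2* (0.927). The points share arrays, groups and scaling.

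The median signal of the 10 transport genes was 0.18 and 0.67 on the adjacent arrays, -0.95 to -0.72 on the adenoma arrays and -2.11 to -1.79 on the small intestine arrays. This median mixes probes of unlike brightness and does not give the direction of the genes. Taken gene by gene against small intestine, the median log2 fold change was -0.57 over 8 members in adenomas and -0.29 over 7 members in adjacent tissue.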
